A study of Arabidopsis thaliana with 4 samples.

Results

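The respiratory burst oxidase homologues of Arabidopsis thaliana are a family of 10 NADPH oxidase genes, RBOHA to RBOHJ, chosen here by locus. All 10 were measured, each by 1 probe set, among 27826 probe sets on the array. In the order of their letters the loci were AT5G07390, AT1G09090, AT5G51060, AT5G47910, AT1G19230, AT1G64060, AT4G25090, AT5G60010, AT4G11230 and AT3G45810. The reference gene table gives an RBOH name, as symbol or synonym, to 7 of them. It gives none to RBOHE, RBOHG and RBOHI, whose letters come from the list of members.

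RBOH proteins sit in the plasma membrane and pass electrons from NADPH in the cytosol to oxygen outside the cell, which forms superoxide that is turned into hydrogen peroxide. Calcium bound at EF-hand motifs, and phosphorylation by several kinases, switch the enzymes on. In leaves, RBOHD is best known for the oxidative burst after pathogen recognition and RBOHF for work with RBOHD in stomatal and stress responses. RBOHC is known from root hairs and RBOHH and RBOHJ from pollen tubes.

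Transcripts were measured on 4 Affymetrix arrays of whole rosettes at 4 weeks, in the Columbia-0 accession (Col-0). There were 2 arrays of the wild type and 2 of plants labelled 35S:∆13RAP2.12. That label names a shortened form of RAP2.12 behind the viral 35S promoter, which is active in most plant tissues. Full-length RAP2.12 is an oxygen-labile transcription factor of the group VII ethylene response factors (ERF-VII). Growth conditions were the same for both groups, with 2 days at 4 °C as seed, days of 12 h at 22 °C, nights at 18 °C and harvest 10 h into the light period. Other arrays of the series were not analysed here. No low-oxygen treatment is named for either group. The labels do not say how many transgenic lines were used or whether plants were pooled, nor that replicates were separate plants, so the spread behind each p-value may be technical. The number of arrays limits the precision of every value.

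RAP2.12 itself, the gene named in the label, had log2 levels of 11.07 and 11.16 on the Col-0 arrays and 11.28 and 11.06 on the 35S:∆13RAP2.12-labelled arrays. The groups overlapped, and the difference was 0.06 (SE 0.13, limma adjusted p = 0.879). This level does not bear out the label, but the sources used here do not say which part of the transcript it reads. All directions given here compare 35S:∆13RAP2.12-labelled arrays with Col-0. Median log2 levels lay between 7.88 and 7.91 on the 4 arrays. Across probe sets, which are not replicates, arrays correlated at r = 0.993 within groups and at 0.978 to 0.980 between them. The 5 leaf markers, among them the Rubisco subunit gene RBCS1A and the Rubisco activase gene RCA, lay above the lower quartile on all arrays. All 7 root hair markers lay below it on all arrays.

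RBOHB rose in the 35S:∆13RAP2.12-labelled arrays, and it was the only RBOH gene that passed the test. A probe set was called at a limma adjusted p below 0.05, adjusted after Benjamini and Hochberg over the whole array. By this rule 1 RBOH gene was higher, 0 were lower and 9 did not pass. Over the array 2.17% of probe sets were called, with 1.74% called higher and 0.424% called lower. RBOHI had a difference of the same size as RBOHB but did not pass, and RBOHD had a small difference with little spread that did not pass either. At an unadjusted p below 0.05 there were 3 RBOH genes, RBOHB, RBOHI and RBOHD, against 16.2% of all probe sets. In bulk rosettes, more cells that express a gene and more RNA per cell cannot be told apart.

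**Figure D1:**
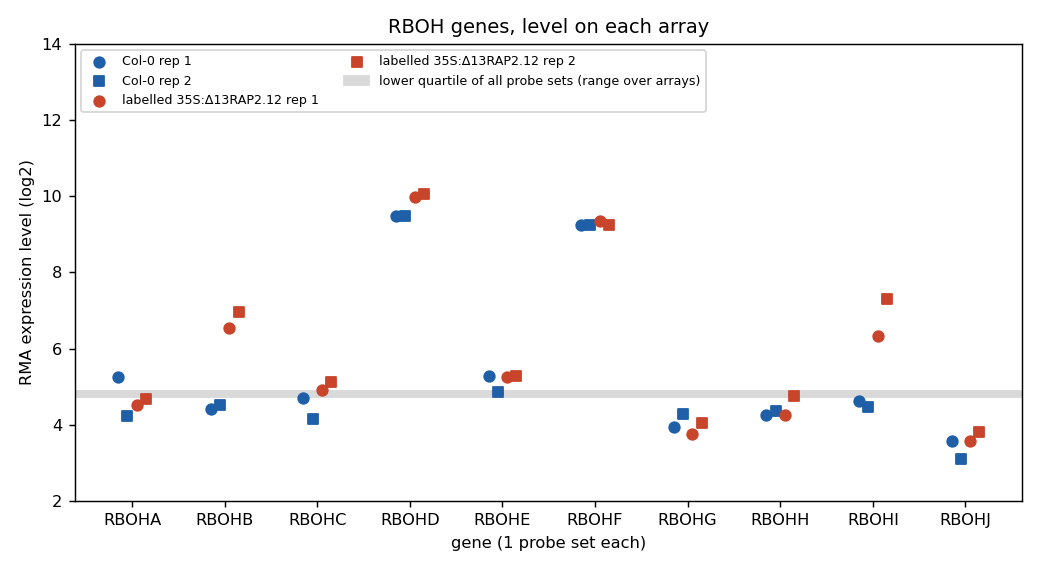
Log2 RMA level of the 10 RBOH genes on each of the 4 arrays (blue, Col-0; red, labelled 35S:∆13RAP2.12; circles, replicate 1; squares, replicate 2), with the range over arrays of the lower quartile of all probe sets as a grey band. RBOHB and RBOHI lie below the band in Col-0 and above it on both other arrays, while RBOHG and RBOHJ lie below it throughout; levels of different probe sets are not comparable with each other.

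RBOHB encodes an NADPH oxidase known from work on seed germination and after-ripening. Its log2 level was 4.41 and 4.52 on the Col-0 arrays, with a mean of 4.46 ± 0.077 (SD, n = 2). On the 35S:∆13RAP2.12-labelled arrays it reached 6.54 and 6.95, with a mean of 6.74 ± 0.29 (SD, n = 2). Both of the latter were higher than both Col-0 arrays, by 2.02 at the least and 2.54 at the most. This log2 difference of 2.28 (SE 0.18, limma adjusted p = 0.0134), or 4.86-fold, had a 95% interval from 1.81 to 2.75. It was larger than that of 99.1% of all probe sets. The wild-type level lay below the lower quartile of each array, where it is not known whether signal stood above background, so the exact fold is not determined. RBOHB did not pass without Col-0 replicate 1 (limma adjusted p = 0.153) or without Col-0 replicate 2 (limma adjusted p = 0.154), with differences of 2.23 and 2.33. Over the whole array 0 probe sets, or 0%, and 29 probe sets, or 0.104%, passed in those fits.

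RBOHI had nearly the same difference with a wider spread. Its log2 level was 4.61 and 4.46 on the Col-0 arrays, and 6.34 and 7.30 on the 35S:∆13RAP2.12-labelled arrays. The groups did not overlap, and the 2 latter arrays lay 0.68 (SD, n = 2) around a mean of 6.82, against 4.53 ± 0.11 (SD, n = 2) in the wild type. The difference of 2.29 (SE 0.34, limma adjusted p = 0.061), or 4.87-fold, had a 95% interval from 1.39 to 3.19. As with RBOHB, both wild-type levels were below the lower quartile and both others above it. RBOHI passed when the prior variance followed the level (limma adjusted p = 0.00546) and without 35S:∆13RAP2.12-labelled replicate 1 or 2 (limma adjusted p = 0.0185 and 0.0413). Its difference in those last 2 fits was 2.76 and 1.81. Over the whole array 0.942% and 1.13% of probe sets passed in these. With probe sets of a mean level under 4.82 left out, RBOHI also came below the threshold (limma adjusted p = 0.0415), where 4.32% of the probe sets tested did. Its Col-0 mean of 4.53 was under that level, so it was kept only through the arrays where it was high, and that pass is no support for it. At an adjusted p threshold of 0.10 RBOHB and RBOHI passed, as did 4.32% of all probe sets, and at 0.01 no RBOH gene did, against 0.575%. RBOHB and RBOHI were the 2 RBOH genes with a difference of at least 2-fold, as had 2.91% of all probe sets.

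RBOHD, the oxidase of the pathogen-induced burst in leaves, had log2 levels of 9.49 and 9.48 on the Col-0 arrays. On the 35S:∆13RAP2.12-labelled arrays they were 9.99 and 10.07. Both of these lay above both Col-0 arrays, and the 4 differences between single arrays ranged only from 0.50 to 0.59. The log2 difference of 0.54 (SE 0.11, limma adjusted p = 0.119), or 1.46-fold, did not pass, and its 95% interval ran from 0.25 to 0.84. When the prior variance followed the level, RBOHD passed (limma adjusted p = 0.0145). In that fit 6.32% of all probe sets and 3 RBOH genes passed, RBOHB, RBOHD and RBOHI. In simulations over 27826 genes, a log2 change of 1 was recovered in 2.4% of genes and a change of 2 in 73.4%. Small changes were thus mostly missed there. Those simulations changed 200 genes and drew each variance from the fitted prior, so they give no rate for RBOHD itself.

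RBOHF, which acts with RBOHD in leaves and in the root endodermis, had log2 levels of 9.25 on both Col-0 arrays and of 9.34 and 9.25 on the others. The groups were separated in the third decimal alone. Their log2 difference came to 0.05 (SE 0.11, limma adjusted p = 0.876), with a 95% interval from -0.25 to 0.35. The interval thus leaves out a difference as large as that measured for RBOHD, 0.54. Whether the differences of RBOHD and RBOHF themselves differ was not tested.

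**Figure D2:**
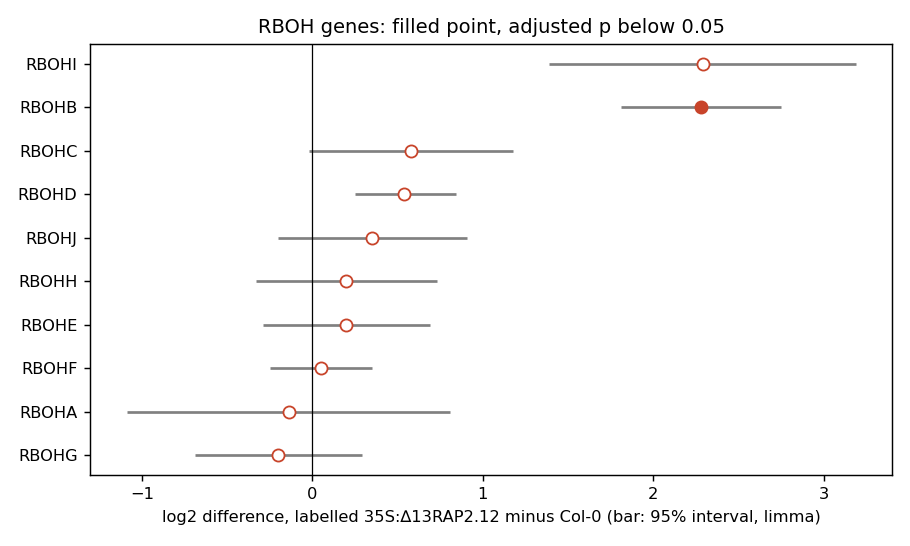
Log2 difference between the 35S:∆13RAP2.12-labelled arrays and Col-0 for each RBOH gene (points) with its 95% interval from limma (bars), filled where the adjusted p was below 0.05. RBOHI at 2.29 and RBOHB at 2.28 stand apart from the other 8 genes, which lie between -0.20 and 0.58.

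None of the RBOH genes known from roots, pollen and anthers passed the test. RBOHC, which drives root hair growth, had log2 levels of 4.71 and 4.15 in the wild type, and 4.91 and 5.11 on the 35S:∆13RAP2.12-labelled arrays. These groups did not overlap, but the interval of the difference reached 0 (0.58, SE 0.23, 95% interval -0.02 to 1.18, limma adjusted p = 0.321). Of 7 root hair markers 0 were called, which says little in so short a list, as 2.17% of all probe sets were called. All 7 lay below the lower quartile on every array, and their mean log2 level was 3.51 and 3.66 in the wild type and 3.46 and 3.60 on the other arrays. RBOHC was below the lower quartile on 1 of the 4 arrays.

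RBOHH, an oxidase of the pollen tube tip, had log2 levels of 4.25 and 4.35 in the wild type, and 4.25 and 4.75 on the other arrays. RBOHJ, its partner in pollen tubes, had 3.57 and 3.09, and then 3.56 and 3.81. In both genes the groups overlapped and all 4 arrays lay below the lower quartile. The differences were 0.20 for RBOHH (95% interval -0.33 to 0.73, limma adjusted p = 0.691) and 0.35 for RBOHJ (95% interval -0.20 to 0.91, limma adjusted p = 0.495). Of 7 pollen markers 0 were called, where 2.17% of all probe sets were. On every array 4 of the 7 lay below the lower quartile and 2 above it.

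RBOHE, known from the tapetum of the anther, had log2 levels of 5.29 and 4.85 in the wild type, and 5.25 and 5.29 on the other arrays. The groups overlapped, and the difference was 0.20 (95% interval -0.29 to 0.69, limma adjusted p = 0.668). Of 5 tapetum markers 0 were called, where 2.17% of all probe sets were, and 4 lay below the lower quartile on every array. RBOHE itself lay above the lower quartile on all 4 arrays.

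RBOHA and RBOHG were the 2 members with a negative difference. RBOHA had 5.24 and 4.23 in the wild type, and 4.51 and 4.68 on the other arrays. Its Col-0 arrays lay farther apart than those of any other RBOH gene, at an SD of 0.72, and enclosed both other arrays. The difference was -0.14 (95% interval -1.09 to 0.81, limma adjusted p = 0.893), and it turned to 0.37 without Col-0 replicate 1. RBOHG had 3.94 and 4.28 in the wild type, and 3.76 and 4.05 on the other arrays, all 4 below the lower quartile. These groups overlapped, with a difference of -0.20 (95% interval -0.69 to 0.29, limma adjusted p = 0.662).

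Across the family, 8 of the 10 RBOH genes had a positive difference, where 42.4% of all probe sets did. The median difference was 0.28, against -0.04 over all probe sets, and the quartiles were 0.09 and 0.57. In 5 members the groups did not overlap, RBOHB, RBOHI, RBOHC, RBOHD and RBOHF, all of them with the 35S:∆13RAP2.12-labelled arrays higher, where 19.5% of all probe sets showed this pattern. In 0 members did they separate the other way, against 29.1% of all probe sets. The median was 0.49 without Col-0 replicate 1 and 0.18 without Col-0 replicate 2, and 0.46 and 0.21 without 35S:∆13RAP2.12-labelled replicates 1 and 2. On all 4 arrays 3 members lay above the lower quartile, RBOHD, RBOHE and RBOHF, and 3 below it, RBOHG, RBOHH and RBOHJ. Of all 27826 probe sets, 19939 lay above it and 5999 below it on all 4 arrays.

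**Figure D3:**
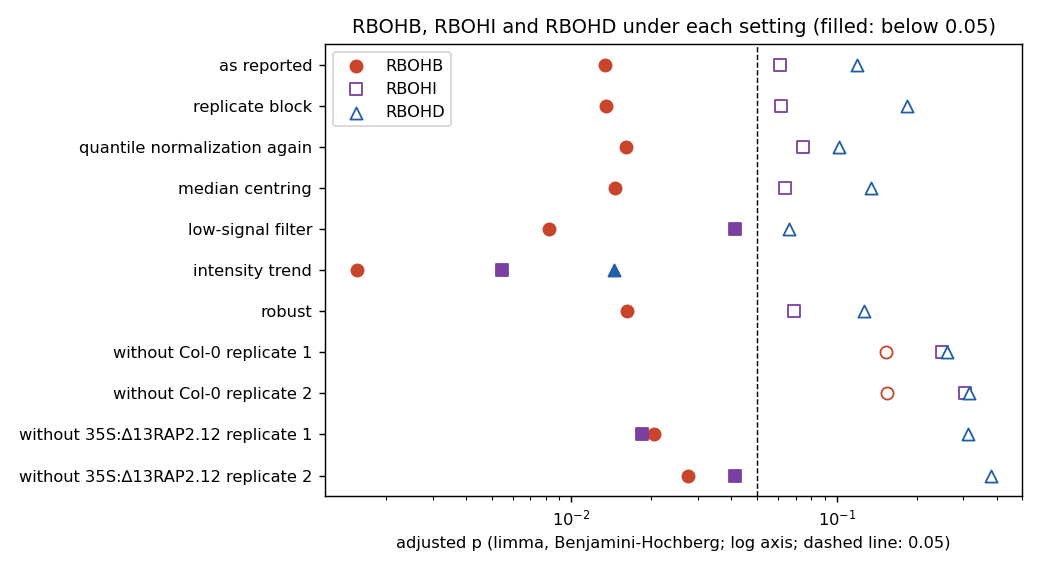
Adjusted p (log axis) of RBOHB, RBOHI and RBOHD under the reported fit and 10 alternatives, filled where it was below the dashed line at 0.05. RBOHB stays below the line except without Col-0 replicate 1 or 2, RBOHI crosses it in 4 of the alternatives, and RBOHD crosses it only with an intensity trend. Fits with an array left out have no spread for the group it came from, so crossings in them are no support.

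The probe sets whose pattern over the 4 arrays was most like that of RBOHB, after each profile was taken relative to its own wild-type mean, were AT3G48450, BON3 and AT3G12502. The root mean square difference from RBOHB was 0.0519, 0.0766 and 0.0872 log2 units. BON3, of the copine family of calcium-dependent membrane proteins, had 3.85 and 4.17 in the wild type, and 6.11 and 6.46 on the other arrays. The log2 differences of the 3 probe sets were 2.28, 2.28 and 2.22. With only 4 arrays likeness of this kind is easily met, and 24 probe sets lay within 0.2 of RBOHB.

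Of 30 genes listed as regulators of RBOH activity, 1 was higher, 0 were lower and 29 did not pass, with a median difference of 0.05. Over the array 2.17% of probe sets were called, so a single call in a list of this length is near the background. The gene was AT3G03270, which the reference table names by locus alone. Its log2 level was 9.66 and 9.38 in the wild type, and 12.43 and 12.34 on the 35S:∆13RAP2.12-labelled arrays. These groups lay far apart, with a log2 difference of 2.86 (SE 0.15, 95% interval 2.47 to 3.26, limma adjusted p = 0.00552), or 7.28-fold. Its wild-type level was well above the lower quartile, unlike that of RBOHB. Its log2 difference was 3.01 without Col-0 replicate 1 and 2.72 without Col-0 replicate 2. AT3G03270 did not pass in those fits, but hardly any probe set of the array did. They have no spread within Col-0, so that outcome says little about this gene.

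The kinases that phosphorylate RBOHD and RBOHF did not pass. BIK1, the receptor-associated kinase that phosphorylates RBOHD, had log2 levels of 8.01 and 8.21 in the wild type, and 8.63 and 8.27 on the other arrays, with a difference of 0.34 (limma adjusted p = 0.434). CPK6, a calcium-dependent kinase, had 7.77 and 7.80, and then 8.59 and 8.50, with a difference of 0.76 (SE 0.11, limma adjusted p = 0.0627). OST1, the abscisic acid-activated kinase that acts on RBOHF in guard cells, had 8.73 and 8.75, and then 9.43 and 9.66, with a difference of 0.81 (SE 0.13, limma adjusted p = 0.077). In CPK6 and OST1 the groups did not overlap and the other arrays were higher, as in 11 of the 30 listed regulators. Over the array 19.5% of probe sets showed this pattern. In 6 of the 30 the groups separated lower, against 29.1% of all probe sets. CPK6 and OST1 passed with probe sets of low mean level left out, where 4.32% of the probe sets tested did. They also passed with an intensity trend, as did 6.32% of all probe sets. Both genes were named after their values were seen. The locus AT3G11490 differed by 0.12 (limma adjusted p = 0.821).

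Of 10 receptors and co-receptors that recognise microbial or damage patterns upstream of RBOHD, 1 was higher, 0 were lower and 9 did not pass, with a median difference of 0.16, where 1.74% of all probe sets were called higher. RLP23, a receptor-like protein that recognises a peptide of microbial necrosis-inducing proteins, rose from 8.75 and 9.09 to 10.77 and 11.08 (log2 difference 2.01, SE 0.19, limma adjusted p = 0.0206), or 4.02-fold. It did not pass without Col-0 replicate 1 or 2 or without 35S:∆13RAP2.12-labelled replicate 2. The difference of RLP23 in those fits was 1.84, 2.18 and 1.85. Fewer probe sets passed in them over the whole array, so that outcome says little about this gene. FLS2, the flagellin receptor, had 7.58 and 7.97 in the wild type and 6.89 and 6.72 on the other arrays. This difference of -0.97 (SE 0.18, limma adjusted p = 0.0938) ran the other way from RLP23 and did not pass. With an intensity trend 3 of the receptors passed, RLP23 and SOBIR1 higher and FLS2 lower, in a fit that called 6.32% of all probe sets.

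Of 22 genes known to respond to hydrogen peroxide or superoxide, 2 were higher, 0 were lower and 20 did not pass, with a median difference of 0.41, where 1.74% of all probe sets were called higher. ZAT7, a zinc-finger transcription factor, rose from 4.30 and 3.39 to 7.87 and 7.89 (log2 difference 4.04, SE 0.32, limma adjusted p = 0.0141). Its wild-type level lay below the lower quartile, so the exact size is not determined. GRX480, a glutaredoxin gene, rose from 5.47 and 5.12 to 7.72 and 7.32 (log2 difference 2.22, SE 0.21, limma adjusted p = 0.0206).

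The related ZAT12, often used as a reporter of oxidative stress, had 5.36 and 6.52 in the wild type, and 8.25 and 7.96 on the other arrays. Its Col-0 arrays lay 0.81 (SD, n = 2) around their mean, and the difference of 2.17 (SE 0.41, limma adjusted p = 0.0987) did not pass. With the replicate number as a block 4 of the 22 genes passed, ZAT10 and GSTU24 among them, against 1.85% of all probe sets. With an intensity trend 6 did, 5 higher and 1, AT5G49760, lower, against 6.32% of all probe sets. With 1 array left out the difference of ZAT7 ranged from 3.58 to 4.50, and that of GRX480 from 2.02 to 2.42. Calls in those fits say little. They have no spread for the group that array came from, and fewer probe sets passed over the whole array.

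**Figure D4:**
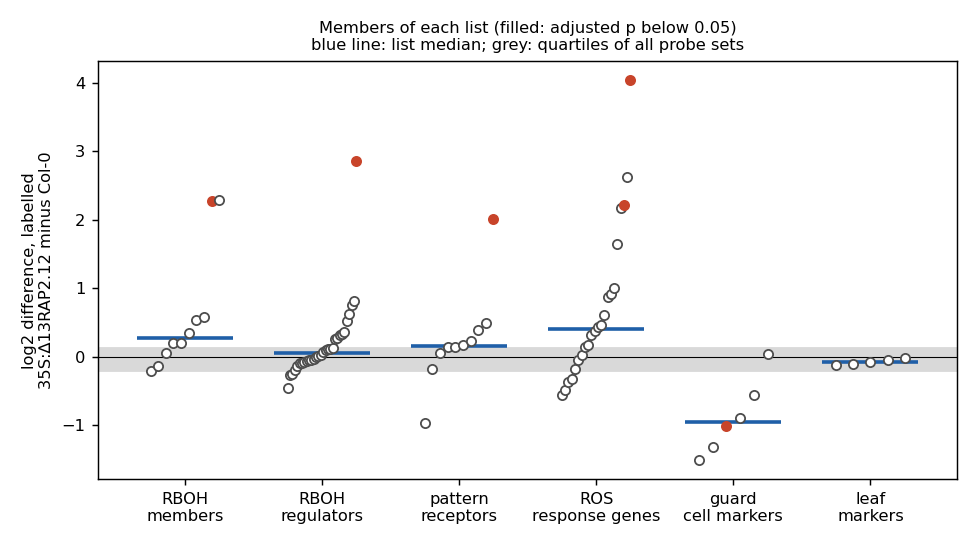
Log2 difference of each gene in 6 lists (points, filled where the adjusted p was below 0.05), with the list median (blue line) and the range between the quartiles of all probe sets (grey band). The medians are 0.28 for RBOH genes, 0.05 for regulators, 0.16 for pattern receptors, 0.41 for genes that respond to reactive oxygen, -0.95 for guard cell markers and -0.07 for leaf markers.

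Guard cells are a leaf cell type in which RBOHD and RBOHF are known to act, and their markers were lower in part. Of 6 guard cell markers, 0 were higher, 1 was lower and 5 did not pass, with a median difference of -0.95, where 0.424% of all probe sets were called lower. MYB60, a transcription factor of guard cells, fell from 7.43 and 7.33 to 6.46 and 6.28 (log2 difference -1.01, SE 0.13, limma adjusted p = 0.0445). MYB60 did not pass with the replicate block (limma adjusted p = 0.0627) or in any of the 4 fits that left out 1 array. Its differences in those 4 fits ran from -1.10 to -0.92. Such fits have no spread for the group that array came from, and they called fewer probe sets lower over the whole array. The anion channel gene SLAC1 had 8.42 and 8.37 in the wild type and 6.66 and 7.51 on the other arrays, a difference of -1.32 (limma adjusted p = 0.144). FAMA, a regulator of guard cell fate, had a difference of 0.04 (limma adjusted p = 0.905). In 5 of the 6 markers, all but FAMA, both 35S:∆13RAP2.12-labelled arrays were lower than both Col-0 arrays, a pattern shown by 29.1% of all probe sets. The mean log2 level of the 6 markers was 8.76 and 8.90 in the wild type, and 7.90 and 8.01 on the other arrays. The part of this shift in the levels of RBOHD and RBOHF was not tested. Among 6 markers of the endodermis, the root tissue in which RBOHF is known to act, 0 were called. Over the array 2.17% of probe sets were called, so 0 in so short a list says little. The groups separated lower in 2 of the 6, against 29.1% of all probe sets, and higher in 1, against 19.5%.

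**Figure D5:**
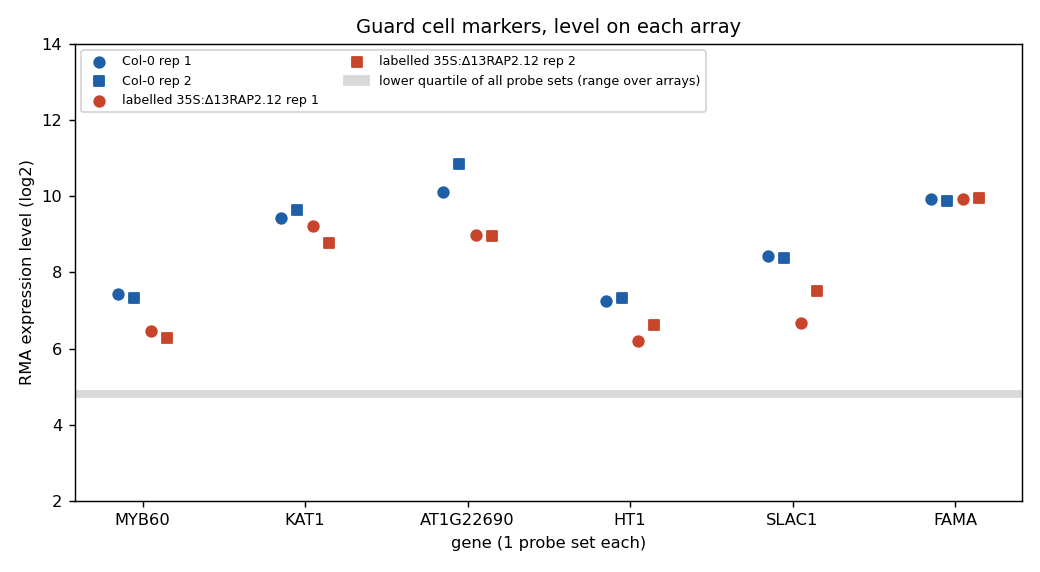
Log2 RMA level of the 6 guard cell markers on each of the 4 arrays (blue, Col-0; red, labelled 35S:∆13RAP2.12; circles, replicate 1; squares, replicate 2), with a grey band for the lower quartile of each array. In MYB60, KAT1, AT1G22690, HT1 and SLAC1 both red points lie below both blue points, and in FAMA they do not; levels of different probe sets are not comparable with each other.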

How the data were processed

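The authors deposited 1 table of RMA values, an array summary after background correction and quantile normalization, for 4 arrays. RMA is named in the submitters' processing notes, and the log2 scale of the deposited values was read from their range. The sources used here give no software version, probe set definition or genome build, so no coordinates are printed. All 4 columns of values entered the analysis. Names came from the TAIR10.1 gene table, which holds 27241 of the loci and lacks 585. Detection calls and scanner intensities were not used. The lower quartile of an array therefore stands in as a mark of low signal.

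Differences were fitted on all 27826 probe sets with lmFit and eBayes of limma 3.58.1 (R 4.3.3), without covariates, filter or pseudocount, and p-values were adjusted after Benjamini and Hochberg over the whole array. Residual degrees of freedom were 2 and prior degrees of freedom 2.55. Errors beside differences are moderated standard errors. The fit was tested on simulated data in 10 simulations with 200 changed genes. Sizes were 1, 2 and 4 on the log2 scale, and 2.4%, 73.4% and 96.1% were recovered, with 4.89% false calls.

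The members, the 98 other list genes and the alternatives were chosen with earlier results of these data known. Named genes were all members, up to 4 called genes of each list, those with the largest changes, and AT3G03270, AT3G11490, BIK1, FLS2 and ZAT12. The 3 probe sets most like each called member were named too. CPK6, OST1, SOBIR1, ZAT10, GSTU24, AT5G49760 and the marker genes were named after their values were seen. Alternatives were a replicate block, a repeat of quantile normalization, centring on array medians, removal of probe sets whose mean level was under the 25th percentile, eBayes with a trend or robust, each array left out, and thresholds of 0.10 and 0.01. Figures were drawn with matplotlib 3.10.9.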

Additional observations from a re-analysis of the deposited data

How the results depend on the processing

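RBOHB passed under the block, both rescalings, the trend and the robust fit (difference 2.23 to 2.28, limma adjusted p from 0.00155 to 0.0162). The low-signal filter, at a mean level of 4.82, kept RBOHB, RBOHI, ZAT7 and GSTU24 only through the arrays where they were high. Passes and counts under it, and its RBOH median, are shaped by that and support nothing for these genes. The count of called RBOH genes was 2 with the low-signal filter, which tested 5 of the 10 and gave a median of 0.54, 3 with an intensity trend, 2 at an adjusted p threshold of 0.10 and 0 at 0.01. With 1 array left out the RBOH median ranged from 0.18 to 0.49. Such a fit has no spread for the group that array came from, so passes in it are no support. Called regulators numbered 3 with the filter, 4 with the trend and 3 at 0.10, and 0 to 1 with an array left out. Called receptors numbered 3 with the trend, 2 at 0.10 and 0 at 0.01, and 0 to 1 with an array left out. Called genes that respond to reactive oxygen numbered 4 with the replicate block, 4 with the filter, 6 with the trend, 5 at 0.10 and 0 at 0.01, and 0 to 2 with an array left out. Over all probe sets 603 passed as reported, 1759 with the trend, 1203 at 0.10 and 160 at 0.01. They numbered 515 with the replicate block, 0 without Col-0 replicate 1, and 29 without Col-0 replicate 2. Without 35S:∆13RAP2.12-labelled replicates 1 and 2 they numbered 262 and 315.

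Of 95 member values under alternatives, 85 kept their direction and side of the threshold, 5 came to pass, 2 no longer passed and 3 changed sign. Among those that came to pass, RBOHI with the low-signal filter or with a 35S:∆13RAP2.12-labelled array left out is no support. The 3 that changed sign were RBOHA at 0.37 without Col-0 replicate 1, RBOHE at -0.02 without Col-0 replicate 2, and RBOHH at -0.05 without 35S:∆13RAP2.12-labelled replicate 2. With an array left out they ranged from -0.64 to 0.37, -0.02 to 0.42 and -0.05 to 0.45. The cause was not tested. The replicate numbers do not pair the arrays by any label, and deviations of same-numbered arrays correlated at 0.0349. With the block RBOHB passed (limma adjusted p = 0.0135) and no other RBOH gene did. With 2 arrays a group and no detection calls, differences of low probe sets are uncertain in size.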
